A study of Mus musculus with 8 samples.

Results

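The transcripts described here come from 10 genes, 5 of red blood cells (Hbb-bs, Hbb-bt, Hba-a1, Hba-a2 and Alas2) and 5 of platelets (Pf4, Ppbp, Itga2b, Gp9 and Gp1bb). They were chosen by gene symbol from the 34899 genes of the deposited table, as known products of these blood cells. Earlier results of these data were known when they were chosen. RNA was sequenced from the lung endothelium of female C57BL6 mice, taken by flow cytometry as cells without the leukocyte antigen CD45 that carried the endothelial antigen CD31. Per the design text, 4 mice were in the group named HF and 4 in the group named LF, and by its title the series concerns obesity, vascular inflammation and metastasis. The labels do not spell out HF and LF, and the sources used here give neither the age of the mice nor their time in the group. The comparison between them shows whether red cell and platelet RNA in the sorted cells differed between the groups.

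Red cells are packed with haemoglobin, a protein of alpha and beta globin chains that each hold a heme group, and their precursors lose the nucleus but keep globin mRNA for a time in the circulation. Platelets are fragments shed by megakaryocytes, and carry megakaryocyte mRNA without a nucleus. Platelets bear CD31 on their surface and stick to endothelium, while mature red cells are not known for either antigen used in the sort. Both groups of genes are read here as marks of these blood cells, and whether the endothelium itself made some of their RNA was not tested.

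All 10 genes had a promoter entry in RefSeq (GRCm38.p6). Only windows that were complete and overlapped no annotated exon could be shown. That of Gp9 also met this but is left out, and those of 5 members are given here. Each is 120 bases that end just before the more upstream of the RefSeq and GENCODE starts, 5′ to 3′ on the strand of the gene. In the 3 erythroid promoters capitals mark, on either strand, the letters CACCC, the letters CCAAT, the box ATATAA or a GATA box. A GATA box was searched in the form AGATAA, in the form AGATAG, which ends in G, and with T as the opening letter in the form TGATAA or in the form that ends in G, TGATAG. In the 2 platelet promoters capitals mark a GATA box or GGAA, the core of an ETS factor site, again on either strand, and other motifs are left in lower case.
Hba-a2, chr11:32296369-32296488, plus strand: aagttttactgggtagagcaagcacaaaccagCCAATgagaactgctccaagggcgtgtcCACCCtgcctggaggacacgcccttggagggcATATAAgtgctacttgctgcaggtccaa
Hbb-bt, chr7:103813997-103814116, minus strand: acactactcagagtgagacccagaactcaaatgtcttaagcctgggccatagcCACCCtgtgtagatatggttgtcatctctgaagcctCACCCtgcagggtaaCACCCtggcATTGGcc
Alas2, chrX:150547255-150547374, plus strand: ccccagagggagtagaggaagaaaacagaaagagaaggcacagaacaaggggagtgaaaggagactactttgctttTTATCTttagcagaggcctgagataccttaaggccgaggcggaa
Pf4, chr5:90772315-90772434, plus strand: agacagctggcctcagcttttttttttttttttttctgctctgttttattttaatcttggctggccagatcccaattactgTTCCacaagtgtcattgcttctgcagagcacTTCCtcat
Ppbp, chr5:90768398-90768517, plus strand: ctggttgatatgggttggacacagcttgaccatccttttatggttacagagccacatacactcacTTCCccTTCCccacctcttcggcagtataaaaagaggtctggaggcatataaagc

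Over the 250 bases before the RefSeq start, an ATATAA box lay in all 4 globin promoters and in that of Ppbp, against 9.10% of 32851 promoters. A CCAAT box lay in the 4 globin promoters and those of Pf4 and Gp9, against 33.8% of all. The CACCC box, the kind of site that KLF factors bind, lay in all 5 erythroid promoters and in those of Gp9 and Gp1bb, against 52.0%. The GATA box, bound by the erythroid and megakaryocytic factor GATA1, lay in the promoters of Hbb-bs, Hba-a1, Hba-a2, Alas2 and Gp1bb, against 26.5%, and GGAA lay in those of every member but Hbb-bt, against 93.4%. The promoters of Hba-a1 and Hba-a2 were the same at 117 of 117 compared bases, and those of Hbb-bs and Hbb-bt at 88 of 119. These are matches of letters and were not tested as binding sites.

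The libraries held 10631506 to 20781564 reads assigned to genes. All expressed the endothelial genes Pecam1, which encodes CD31 (19425 to 33236 normalised counts), and Cdh5, which encodes VE-cadherin (9595 to 13204). A normalised count is a read count divided by the size factor of its library, and it is not scaled for gene length. LF 1 and LF 2 stood apart from the other 6 libraries: they lay at -56.4 and -50.9 on the first principal component (36.1% of the variance), where the others lay between -6.79 and 39.6. Unvalidated gene models (biotype TEC) took 0.725% of the reads of LF 1 and 0.635% of those of LF 2, against 0.286% to 0.443% in the rest, and Pecam1 was lowest there (19425 and 19737). With all 8 libraries, 0 of 17067 genes tested passed limma's test at an adjusted p under 0.05 (0%), 1882 were at an unadjusted p under 0.05, edgeR called 0 and DESeq2 called 309 (1.81%). Because of this, each comparison of the members is given with all libraries, without LF 1 and LF 2, and without the other LF pair. The pairs were thus picked from these same data, and leaving out either removes spread within LF. The adjusted p of those fits therefore describe the libraries kept and are no independent tests of HF against LF.

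All 5 erythroid members had lower mean normalised counts in HF than in LF, as did 48.7% of all genes tested, and none passed the test over all genes. The folds of HF over LF fitted by limma, which compare means of log2 values and so differ from ratios of the mean counts, were 0.731 to 0.782. In normalised counts each of the 5 was higher in LF 3 and LF 4 than in every other library, and LF 1 and LF 2 were close to HF. LF 3 held the highest value of all 5, and 28.4% of genes had theirs in LF 3 or LF 4. As shares of all reads, the globins were above HF in LF 1 and LF 2 too. Of the platelet members 4 were tested. All 4 had a higher mean in HF, as did 51.3% of genes, and they varied 4.94 to 6.57 times between libraries with no difference between the groups that passed the test. As the RNA of all sorted cells was pooled in each library, fewer cells of a type and less RNA per cell cannot be told apart.

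**Figure D1:**
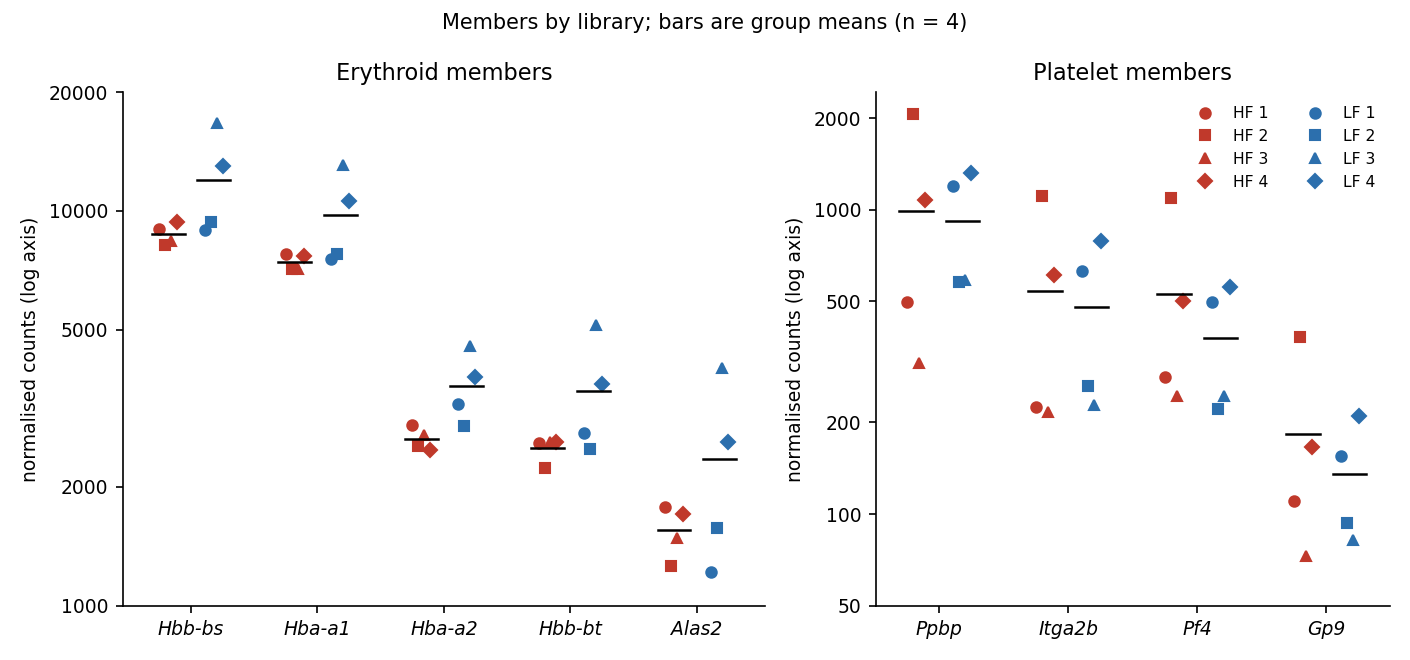
Normalised counts (log axis) of the 5 erythroid members (left) and the 4 platelet members that were tested (right) in each of the 8 libraries, HF in red and LF in blue, with a marker shape for each replicate number and a bar at each group mean (n = 4). LF 3 and LF 4 lie above the other 6 libraries for each erythroid member, and HF 2 is the highest library for each platelet member.

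Hbb-bs encodes an adult beta globin chain and lies on the minus strand at chr7:103826534-103828096 (GRCm38). Its normalised counts were 9008, 8171, 8396 and 9378 in HF 1 to HF 4 and 8960, 9362, 16696 and 12998 in LF 1 to LF 4. LF 3 and LF 4 were high, while LF 1 and LF 2 fell within the range of HF, so the groups overlapped. The means were 8738 ± 554 in HF and 12004 ± 3617 in LF (SD, n = 4 each), and the fitted fold was 0.751 (95% interval 0.565 to 0.998), or -0.41 in log2. The unadjusted p was 0.0489 and the adjusted p was 0.449 by limma.

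Hbb-bt, the other adult beta globin gene, lies near it on the same strand at chr7:103812524-103813996. It stood at 2582, 2232, 2603 and 2591 normalised counts in HF 1 to HF 4 and at 2730.5, 2500.4, 5126 and 3632 in LF 1 to LF 4. HF 2 was the lowest library, LF 2 lay inside the HF range, and LF 1 was only just above it. The means were 2502 ± 180.4 in HF and 3497 ± 1190.4 in LF (SD, n = 4), and the fitted log2 fold change was -0.43, with an adjusted p of 0.446 by limma.

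Hba-a1 encodes the adult alpha globin chain and lies on the plus strand at chr11:32283511-32284465. Its values were 7763, 7135, 7127 and 7687 normalised counts in HF 1 to HF 4 and 7535, 7786, 13066 and 10609.7 in LF 1 to LF 4. LF 1 was inside the HF range and LF 2 barely above it, and the LF 3 value was again the highest. The means were 7428 ± 344 and 9749 ± 2614 (SD, n = 4), and the fitted log2 fold change was -0.36, with an adjusted p of 0.476 by limma.

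Hba-a2 encodes the same chain from chr11:32296489-32297298 on the plus strand. It was measured at 2871, 2534, 2713 and 2479.8 normalised counts in HF 1 to HF 4 and at 3240.5, 2844, 4540.5 and 3803 in LF 1 to LF 4. The groups overlapped only through LF 2, which was below HF 1. The means were 2649 ± 178 and 3607 ± 736 (SD, n = 4), and the fitted log2 fold change of -0.43 had the smallest p of the members, 0.0126 unadjusted and 0.309 adjusted by limma. For Hba-a2 the adjusted p was 0.265 by edgeR and 0.0880 by DESeq2.

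Within the alpha pair and within the beta pair, the globin genes cannot be separated with certainty. Of all 50-base windows of its transcripts, 72.3% of those of Hba-a1 also occur in Hba-a2 and 89.3% of those of Hba-a2 occur in Hba-a1, and 53.2% of those of Hbb-bs and 58.3% of those of Hbb-bt occur in the other beta gene. Summed before the fit, the alpha pair had a log2 fold change of -0.37 (adjusted p = 0.445 by limma) and the beta pair one of -0.42 (adjusted p = 0.456). The summed chains thus differed by about as much as the single genes, and neither sum passed the test.

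The share of all assigned reads that fell on the 4 globin genes was 0.146%, 0.126%, 0.136% and 0.135% in HF 1 to HF 4 and 0.173%, 0.164%, 0.253% and 0.186% in LF 1 to LF 4. By this measure every HF library was below every LF library, LF 1 and LF 2 included. The means were 0.136% ± 0.00824 and 0.194% ± 0.0405 (SD, n = 4), a log2 ratio of -0.52, and each share had a 95% Wilson interval of at most 0.00250 percentage points to either side, which covers counting error only. Per 1000000 assigned reads, each of the 4 globin genes was below LF in all HF libraries, as were 2.67% of the 17067 genes tested, and Alas2 overlapped. Hbb-bs, for example, lay at 512 to 591 reads on this scale in HF and at 682 to 1072 in LF.

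For single globin genes, whether both LF 1 and LF 2 lay above HF thus depended on the scaling. The sum of the 4 globins lay above HF in both under either scaling, though by little in normalised counts. It was 22466 in LF 1 and 22492 in LF 2, against 20071 to 22224 in HF. In normalised counts, 0 of the 9 members tested had HF values all below or all above LF, against 1.96% of genes all below and 3.47% all above. Scaled to library totals without the globin genes, which moves the median of all genes from 0.023 to -0.076 in log2, the log2 fold change of Hbb-bs was -0.51 (adjusted p = 0.380 by limma) and that of Hba-a2 was -0.53 (adjusted p = 0.360). The direction of the 5 erythroid members was the same under both scalings.

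**Figure D2:**
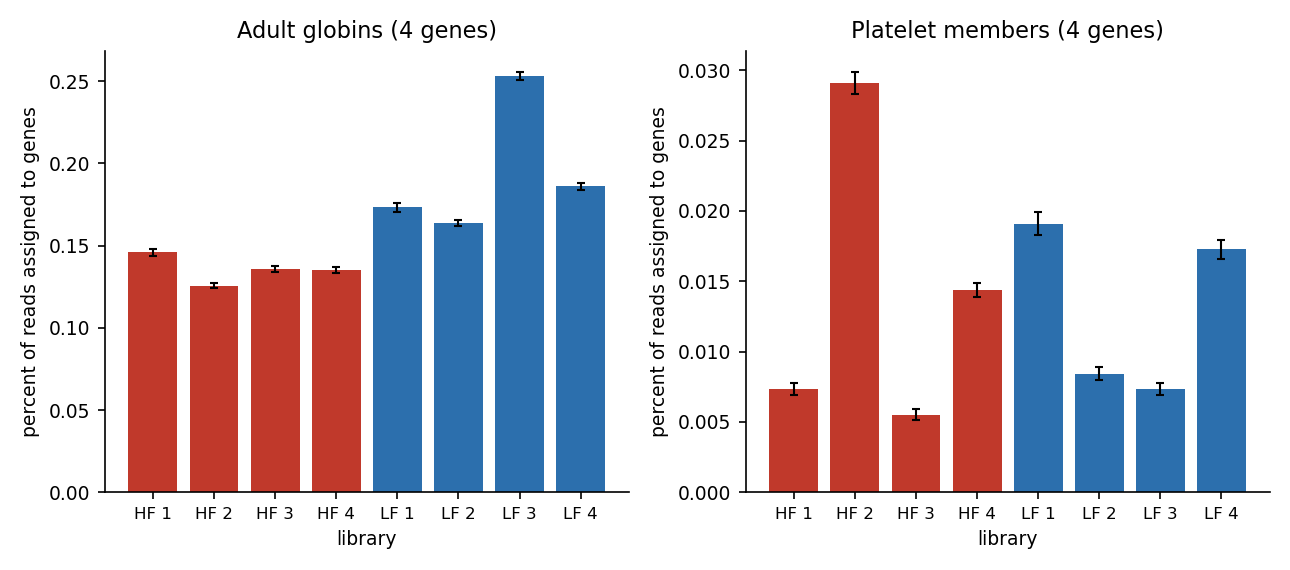
Percent of reads assigned to genes that fell on the 4 adult globin genes (left) and on the 4 tested platelet members (right) in each library, with 95% Wilson intervals for counting error. The globin share lies between 0.126% and 0.146% in HF and between 0.164% and 0.253% in LF, and the platelet share runs from 0.00552% in HF 3 to 0.0291% in HF 2.

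The chains kept similar proportions in all libraries while their level varied. Hbb-bs exceeded Hbb-bt by 3.23 to 3.74 times and Hba-a1 exceeded Hba-a2 by 2.33 to 3.10 times in counts, within the limits of the shared sequence. The summed alpha counts were 0.807 to 0.930 of the summed beta counts, lowest in LF 3. Per kilobase of exon, the mean level in HF was 11378 normalised counts for Hbb-bs, 9148 for Hba-a1, 3972 for Hba-a2 and 3559 for Hbb-bt. Alas2 stood well below the globins on this scale, at 648 in HF and 977 in LF.

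Alas2 encodes the erythroid form of 5-aminolevulinate synthase, the enzyme that opens heme synthesis, and lies at chrX:150547375-150570638 on the plus strand. Its normalised counts were 1773, 1261, 1487 and 1710.2 in HF 1 to HF 4 and 1220.1, 1568, 4004.5 and 2595 in LF 1 to LF 4. LF 3 was far above the rest, and LF 1 was the lowest library of all 8. The means were 1558 ± 233 in HF and 2347 ± 1249.7 in LF (SD, n = 4), and the fitted log2 fold change was -0.45, with an adjusted p of 0.585 by limma. Exons of Apex2 on the opposite strand cover 12.9% of its exon bases, and the sources used here do not give the strand setting of the counting.

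Alas2 spread more widely than the globins. Its highest library exceeded its lowest by 3.28 times, against 2.04 times for Hbb-bs, and it stood at 5.43 normalised counts per 100 globin counts in LF 1 and at 10.2 in LF 3. Its SD within groups was 0.563 in log2, at percentile 82.2 of the genes tested, while that of Hbb-bs was 0.306, at percentile 53.2.

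Of the 5 erythroid members, 3 were lower in HF at an unadjusted p under 0.05 by limma (Hbb-bs, Hbb-bt and Hba-a2), as were 4.67% of all genes tested. None of the 4 platelet members tested was higher at that threshold, as 6.36% of genes were. In the authors' deposited table the adjusted p of the erythroid members was 0.129 for Hba-a2, 0.252 for Hbb-bs, 0.266 for Hbb-bt, 0.311 for Hba-a1 and 0.369 for Alas2. That table of the authors called 311 of 15276 genes, 2.04%, and none of the members was among them.

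Without LF 1 and LF 2, all 5 erythroid members fell in HF at an adjusted p under 0.05 by limma, in a fit that called 113 genes lower (0.662% of those tested) and 528 higher (3.09%), 3.76% together. The log2 fold changes and adjusted p were -0.76 and 0.00550 for Hbb-bs, -0.79 and 0.00859 for Hbb-bt, and -0.67 and 0.00654 for Hba-a1. They were -0.65 and 0.00792 for Hba-a2 and -1.06 and 0.00757 for Alas2, a fold of 0.479 (95% interval 0.368 to 0.625). Here LF 3 and LF 4 were the only LF libraries, and both lay above every HF library. As the pair left out was picked from these same data, these adjusted p do not measure the spread within the whole LF group.

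Without LF 3 and LF 4, 0 of 5 erythroid members passed limma's test, although that fit called 3421 genes (20.0%), 1028 of them lower in HF (6.02%) and 2393 higher (14.0%). The log2 fold change was -0.070 for Hbb-bs (adjusted p = 0.622), -0.066 for Hbb-bt (0.672), -0.045 for Hba-a1 (0.746), -0.20 for Hba-a2 (0.180) and 0.16 for Alas2 (0.468), all by limma. In normalised counts the erythroid difference thus rested on LF 3 and LF 4. In the share of all reads, the log2 ratio of the 4 globins was -0.31 without that pair and -0.52 with all 8 libraries, and it was not tested.

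**Figure D3:**
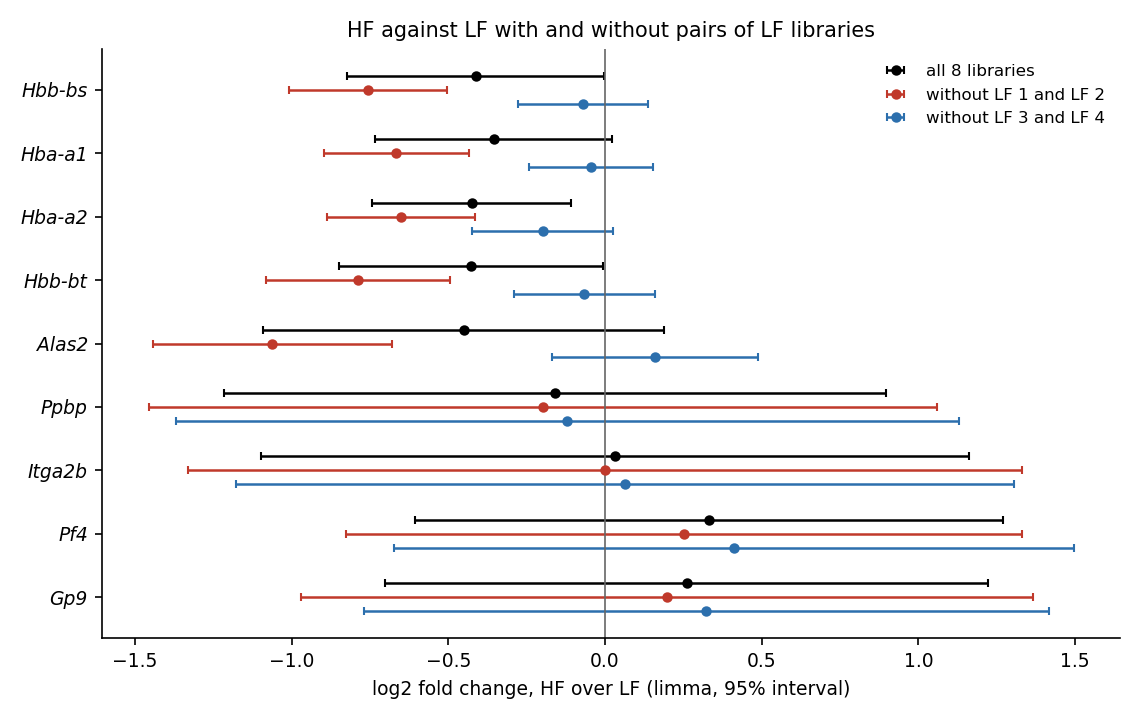
HF against LF as log2 fold change, each with a 95% limma interval, for the 9 members tested, with all 8 libraries (black), without LF 1 and LF 2 (red) and without LF 3 and LF 4 (blue). The red intervals of the 5 erythroid members lie below 0 and the blue ones span it, while all intervals of the platelet members span 0.

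Other genes of red cells were measured in 4 lists. Of 11 genes in a list of other globins and the alpha globin chaperone Ahsp, 3 had no row, Ahsp among them, and 2 passed the filter, the neuronal Ngb and the widely expressed Cygb, neither of which is specific to red cells. The embryonic globins were almost absent, with 3 reads over 8 libraries for Hbb-y, 1 for Hbb-bh0 and 1 for Hba-x. The theta globins Hbq1a (36 reads) and Hbq1b (44 reads) were under the filter and both were highest in LF 3.

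Of the 12 other genes of heme synthesis and iron delivery all passed the filter, 0 were called, and in 8 the HF mean was the higher (median log2 fold change 0.14, against 0.02 for all genes tested). Many of them are active in most cell types. Cpox, a late enzyme of the pathway, was at 305 ± 74.9 normalised counts in HF and 184 ± 77.1 in LF (SD, n = 4; unadjusted p = 0.0173 and adjusted p = 0.340 by limma). Without LF 1 and LF 2 it passed as higher in HF, with a log2 fold change of 1.32 (adjusted p = 0.00913 by limma), the opposite direction to Alas2. Tfrc, the transferrin receptor, stood at 213 ± 21.2 in HF and 295 ± 60.2 in LF (adjusted p = 0.385 by limma), and Slc25a38, a mitochondrial glycine carrier, at 582 ± 51.9 and 474 ± 106.8 (adjusted p = 0.513).

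Of 15 red cell membrane and skeleton genes 1 had no row, 8 passed the filter, 0 were called and 3 had a higher mean in HF (median log2 fold change -0.22). Tmod1, a cap of short actin filaments, was highest in LF 1 and LF 2 (135 and 172, against 52.4 to 76.2 in the other 6), and it passed as lower in HF only in the fit without LF 3 and LF 4 (adjusted p = 0.00934). Dmtn, an actin-bundling protein of the membrane skeleton, had means of 992 ± 93.3 in HF and 849 ± 185 in LF (adjusted p = 0.585 by limma). In the fit without LF 3 and LF 4 it passed in the other direction to Tmod1, higher in HF by 0.49 in log2 (adjusted p = 0.0301).

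Of 15 genes of red cell formation and maturation 7 passed the filter, 0 were called and 2 had a higher mean in HF (median log2 fold change -0.077). The nuclear factors in this list differed in level. Under the filter were Klf1 with 22 reads over 8 libraries, Hemgn with 4, Gata1 with 93, Gfi1b with 51 and Sox6 with 71. Past it were Tal1 with 5115 reads, Nfe2 with 1048 and Zfpm1 with 478. Bpgm, which makes 2,3-bisphosphoglycerate, the regulator of oxygen release, was at 904, 766, 853 and 1016 normalised counts in HF 1 to HF 4 and at 875, 955, 1876 and 1471 in LF 1 to LF 4.

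In normalised counts Bpgm was high in LF 3 and LF 4 only, as the globins were. Without LF 1 and LF 2, Bpgm fell in HF by 0.92 in log2 (adjusted p = 0.00545 by limma), and with all 8 libraries its adjusted p was 0.435. Zfpm1, the GATA1 cofactor FOG1, had means of 65.2 ± 22.5 in HF and 50.4 ± 29.1 in LF (adjusted p = 0.665 by limma).

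Among 10933 genes with a mean of at least 50, those whose log2 values were most like the mean of the 4 globins over the 8 libraries included Bpgm (Pearson r = 0.974), Mrpl54 (0.972), Psme2b (0.949) and Lyst (0.938). Their Spearman rho was 0.76, 0.90, 0.98 and 0.76 in the same order. Without LF 3 and LF 4, the libraries farthest from the median, r was 0.598, 0.574, 0.806 and 0.626, so the likeness rests largely on that pair. These genes were selected for their likeness among all those compared, so no p is given, and the libraries share their size factors with the globins.

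Markers of leukocytes and epithelium were read beside the erythroid members. Most of them also had lower means in HF, as did 48.7% of all genes tested, with 0 called in the fit of all 8 libraries. Endothelial markers went the other way, with a higher mean in HF for 8 of 10. Without LF 3 and LF 4, 8 of them passed as higher in HF and 1 as lower, against 14.0% and 6.02% of all genes tested. Ptprc, which encodes CD45, was at 90.4 to 248 normalised counts in HF and 127 to 265 in LF. Of 11 macrophage markers 8 passed the filter and all 8 had a lower mean in HF, with summed levels of 3622 to 6222 in HF and 5883 to 7973 in LF, most of it Lyz2. They did not share a single order of libraries. C1qa, C1qb and C1qc, named after their values were seen, were highest in LF 3 (141, 248 and 208) and next in LF 4 (63.3, 153.8 and 136), as the globins were. C1qc also passed as lower in HF without LF 1 and LF 2 (adjusted p = 0.0397 by limma). Cd68 and Mrc1, by contrast, were highest in LF 1 (579.5 and 228) and passed as lower in HF without LF 3 and LF 4 (adjusted p = 0.00906 and 0.0207 by limma), and Csf1r was highest in LF 2 (264).

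All 10 epithelial markers passed the filter and had a lower mean in HF, with summed levels of 16461 to 25263 in HF and 21103 to 35026 in LF. Scgb3a2, a secretoglobin of airway cells, was at 149.7 to 256 normalised counts in HF and 258 to 599 in LF, and it passed as lower in HF when either LF pair was left out (limma adjusted p = 0.00388 without LF 1 and LF 2, 0.0321 for the fit that left out LF 3 and LF 4, and 0.146 with all 8 libraries). Of 10 neutrophil markers 7 passed the filter and all 7 had a lower mean in HF, as did 7 of the 8 mast cell and basophil markers. The exception was Kit, which held most of the counts of that list. The part of these cell types in the erythroid result was not tested.

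**Figure D4:**
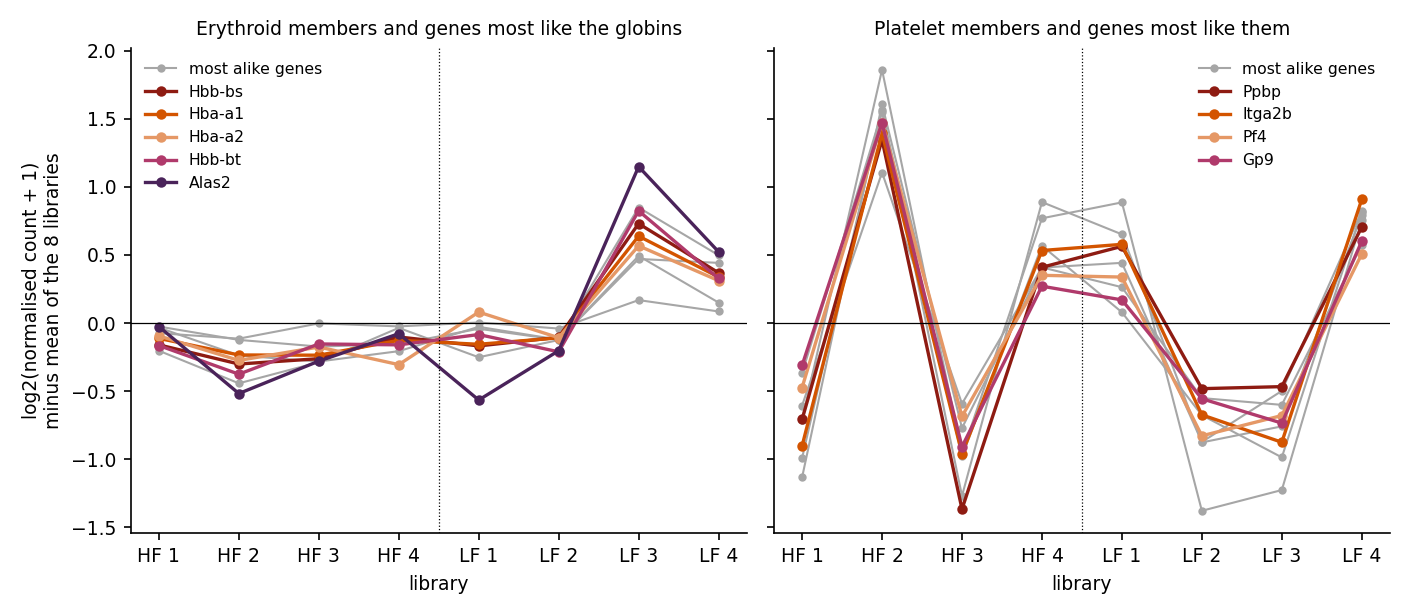
Deviation of log2(normalised count + 1) from the mean of the 8 libraries for the erythroid members (left) and the tested platelet members (right) in color, with genes most like each set in grey (4 on the left, 5 on the right) and a dotted line between HF and LF. The erythroid lines rise together in LF 3 and LF 4, and the platelet lines are high in HF 2, HF 4, LF 1 and LF 4 and low in the other 4 libraries.

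The platelet chemokines were measured at lower levels. Pf4, platelet factor 4 (CXCL4), is released from alpha granules and lies at chr5:90772435-90773383 on the plus strand. Its normalised counts were 282, 1091, 244 and 501 in HF 1 to HF 4 and 497, 221, 245 and 559 in LF 1 to LF 4. HF 2 was far above all others, and high and low libraries occurred in both groups. The means were 529.7 ± 391 and 380.2 ± 172 (SD, n = 4), and the fitted fold was 1.26 (95% interval 0.656 to 2.41), or 0.33 in log2, with an adjusted p of 0.774 by limma.

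Ppbp, the precursor of the neutrophil-attracting chemokine CXCL7, lies 5′ of Pf4 at chr5:90768518-90770063. It was at 496, 2062, 314 and 1077 normalised counts in HF 1 to HF 4 and at 1198, 580.1, 586 and 1322 in LF 1 to LF 4. HF held both the highest and the lowest libraries, so LF lay inside its range. The means were 987 ± 787 and 922 ± 394 (SD, n = 4), whereas the log2 fold change was -0.16 (adjusted p = 0.909 by limma), so the direction depended on whether means were taken of counts or of their logarithms.

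Itga2b encodes the alpha chain CD41 of the platelet fibrinogen receptor and lies on the minus strand at chr11:102453297-102470122. Its normalised counts were 225, 1107, 216 and 609 in HF 1 to HF 4 and 628, 263, 229 and 790.5 in LF 1 to LF 4. The groups covered much the same range, apart from HF 2. The means were 539 ± 421 and 478 ± 276 (SD, n = 4), and the fitted fold was 1.02 (95% interval 0.467 to 2.24), or 0.03 in log2 (adjusted p = 0.985 by limma).

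Gp9, a chain of the von Willebrand factor receptor GPIb-IX-V, lies at chr6:87778072-87779768 on the plus strand. It stood at 111, 383, 72.9 and 166 normalised counts in HF 1 to HF 4 and at 155, 93.3, 82.3 and 209 in LF 1 to LF 4. HF 2 was the highest library and HF 3 the lowest. The means were 183 ± 139 and 135 ± 58.9 (SD, n = 4), and the fitted log2 fold change was 0.26, with an adjusted p of 0.825 by limma.

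Gp1bb encodes the beta chain of the same receptor and lies at chr16:18620317-18622403 on the minus strand. It had 1 read over the 8 libraries, in HF 4, and was not tested. For a library with 0 reads the count allows up to 0.167 to 0.282 reads per 1000000 assigned reads, from 3 counts. Exons of Sept5 on the same strand cover 91.1% of its exon bases and those of Gm49601 cover 41.5%, and the sources used here do not say how reads that overlap several genes were counted. Sept5 had 19 reads over 8 libraries and Gm49601 had 4, so few reads were assigned at this locus under any of the 3 names. In the authors' deposited table Gp1bb has no adjusted p.

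The 4 tested platelet members ranked the libraries alike, with HF 2 highest in 4 of 4, against 10.7% of the 17067 genes tested. Their summed normalised counts ran from 846 in HF 3 to 4643 in HF 2, in the order HF 2, LF 4, LF 1, HF 4, LF 2, LF 3, HF 1 and HF 3. Neither the LF pair that stood apart on the principal component nor the pair with high globins was kept together in this order. In the authors' deposited table their adjusted p lay between 0.789 and 0.962.

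Without HF 2 the sign turned for 3 of the 4 and the value grew for Ppbp. The log2 fold changes were -0.10 for Pf4, -0.63 for Ppbp, -0.43 for Itga2b and -0.19 for Gp9, with adjusted p of 0.957, 0.768, 0.867 and 0.923 by limma. Neither fit without an LF pair called any of them, and the intervals with all 8 libraries include differences of the size of the erythroid ones in either direction.

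**Figure D5:**
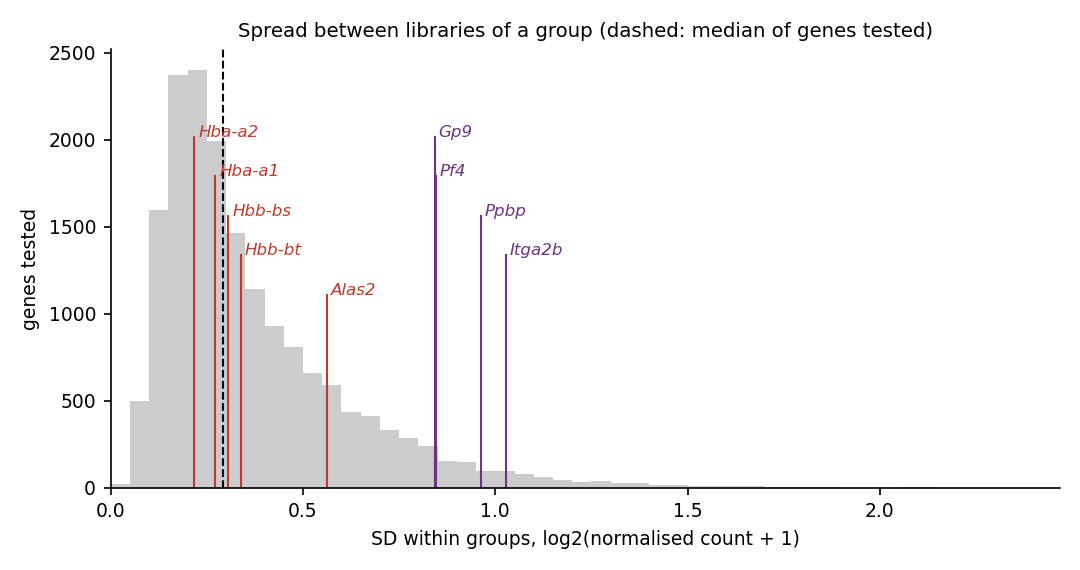
Number of genes tested by the SD of log2(normalised count + 1) within groups, with the erythroid members in red, the platelet members in purple and the median of all genes, 0.291, dashed. The platelet members lie between 0.842 and 1.03, to the right of most genes, and the erythroid members between 0.217 and 0.563.

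The platelet members were among the more variable genes. Their SD within groups was 0.842 for Gp9, 0.845 for Pf4, 0.963 for Ppbp and 1.03 for Itga2b in log2, at percentiles 94.5 to 97.4 of the genes tested, where the median was 0.291. Per kilobase of exon, the HF means were 911 normalised counts for Ppbp, 735 for Pf4, 208 for Gp9 and 98.8 for Itga2b. On this scale the secreted chemokines exceeded the receptor chains, and all were below the globins.

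Within the platelet set the proportions varied less than the levels. Gp9 stood at 0.299 to 0.423 of the Pf4 count and Itga2b at 0.795 to 1.41, with overlapping groups. The ratio of Ppbp to Pf4 was 1.76, 1.89, 1.29 and 2.15 in HF 1 to HF 4 and 2.41, 2.63, 2.39 and 2.37 in LF 1 to LF 4. It was lower in every HF library than in any LF library, the only one of 7 ratios for which this was so. It was singled out after the values were seen and has no test.

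Most other platelet receptors were highest in HF 2 as well. Of 12 further platelet receptors all passed the filter, 0 were called, 10 had a higher mean in HF (median log2 fold change 0.21) and 8 were highest in HF 2. Gp5, another subunit of GPIb-IX-V, was at 19.3, 87.1, 50.5 and 93.0 normalised counts in HF 1 to HF 4 and at 52.5, 32.3, 9.03 and 12.4 in LF 1 to LF 4. HF 1 lay among the LF values. The fitted fold was 2.45 (95% interval 1.02 to 5.88), or 1.29 in log2 (adjusted p = 0.441 by limma), and without LF 1 and LF 2 it rose in HF by 2.22 (adjusted p = 0.0463 by limma).

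F2rl3, the thrombin receptor PAR4, was at 25.8 to 33.5 normalised counts in HF and 13.4 to 25.1 in LF, with an adjusted p of 0.520 by limma. Its groups thus did not overlap, though by little and with only 209 reads over 8 libraries. Of all genes tested, 3.47% had every HF value above LF. Itga2, a collagen receptor chain also made by other cells, had means of 2648 ± 261 and 2333 ± 226 (adjusted p = 0.585 by limma).

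Of 15 granule and signalling genes of platelets 13 passed the filter, 0 were called, 9 had a higher mean in HF (median log2 fold change 0.11) and 9 were highest in HF 2. Tbxas1, thromboxane synthase, had means of 176 ± 52.1 in HF and 226 ± 29.4 in LF (SD, n = 4; adjusted p = 0.520 by limma). Bin2 was at 148 ± 87.1 and 189 ± 53.8 (adjusted p = 0.629), and Ptgs1, cyclooxygenase 1, which endothelium also makes, at 2322 ± 292 and 2068 ± 259 (adjusted p = 0.645).

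Of 12 genes that platelets share with endothelium, such as Vwf and Selp, 3 were highest in HF 2 and 7 had a higher mean in HF (median log2 fold change 0.087). Esam, a junctional adhesion molecule, stood at 11381 and 13745 normalised counts in LF 1 and LF 2 and at 18028 to 21814 in the other 6 libraries. It passed as higher in HF without LF 3 and LF 4 (adjusted p = 0.00508 by limma), and its adjusted p with all 8 was 0.580. In all, 4 of the 12 passed in that fit, each as higher in HF, and 0 passed with all 8 libraries. The same fit called 14.0% of all genes tested as higher in HF, and 8 of the 10 endothelial markers.

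The 5 genes most like the mean of the tested platelet members were Alox12, the platelet 12-lipoxygenase (Pearson r = 0.989), Slc2a3, the glucose transporter GLUT3 (0.981), Tubb1, the platelet beta-1 tubulin (0.974), Treml1 (0.967), and P2ry12, the ADP receptor (0.965). Spearman rho was 0.81, 0.83, 0.95, 0.79 and 0.83 in that order. Without HF 2 and HF 3, the libraries farthest from the median, r was 0.994, 0.976, 0.939, 0.955 and 0.966, so this likeness did not rest on the extreme libraries as that of the globins did. Tubb1, for example, was at 199, 756, 130.2 and 382 normalised counts in HF 1 to HF 4 and at 272, 161, 129 and 453 in LF 1 to LF 4.

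The leukocyte gene Ptprc was also high in the libraries with high platelet counts. It stood at 121, 248, 90.4 and 204 normalised counts in HF 1 to HF 4 and at 265, 127, 182 and 223 in LF 1 to LF 4. The other lymphocyte markers past the filter did not keep this order. Cd79a was at 19.7 in HF 4 and highest in LF 2, at 35.1. Nkg7 and Gzma were high in HF 2 (53.3 and 68.4) and LF 1 (79.3 and 51.2), but at 15.8 and 10.2 in LF 4. The lymphocyte list as a whole summed to 134 to 432 in HF and 250.3 to 497 in LF, with 4 of 10 markers past the filter, and the neutrophil list to 118 to 279 and 161 to 592, with 7 of 10. Their part in the platelet values was not tested.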

How the data were processed

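Per the labels' protocols, TRIzol LS was used for the RNA and a SMART-Seq kit for the libraries. The tools in the submitters' processing notes are DESeq2 1.24.0, featureCounts 2.0.0 and STAR 2.6.1b, with no order. Not given in the sources used here are the build, the annotation, the strand setting and the treatment of reads that overlap several genes. The authors deposited normalised counts, a signal per gene and library not scaled for length. Other columns, per the file headers, are the authors' mean, log2 fold change with its standard error, Wald score, p-value and adjusted p-value. Every value was a whole read count divided by a size factor of its library, so read counts could be recovered, 100% of them whole within 0.01 reads. Totals were 10631506 to 20781564 reads, which limit the precision of genes with few reads.

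All 34899 gene IDs matched GENCODE M21 (GRCm38), and 24 symbols turned into dates were restored from it. Of per-sample columns, 0 matched no sample. The test was run on the 17067 genes that reached 10 normalised counts in 4 or more libraries. It was limma 3.58.1 (R 4.3.3), moderated with a trend of variance on mean, for log2(normalised count + 1), 4 HF against 4 LF, two-sided, Benjamini-Hochberg adjustment over all genes, threshold 0.05. Fold changes are on that scale and understate the change of low genes. This test was set for normalised counts, and edgeR 4.0.16 and DESeq2 1.42.0 on recovered reads were alternatives. The fits were tested on simulated data. Other alternatives were pseudocounts, filters, scalings, summed paralogs, a replicate block, and leaving out each library or an LF pair.

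Members and lists were chosen with earlier results of these data known. All 10 members are given. Some genes that the rules would name are not reported here. From each list up to 3 tested genes with the smallest unadjusted p could be named. For likeness, the 5 genes with the highest Pearson correlation are given, with symbols that are no clone, accession or pseudogene name. Library pairs differed by more than sampling noise (chi-square per degree of freedom 9.99 to 50.7). The labels do not say how the cells of a mouse were divided, and the p-values measure the spread between the libraries kept in each fit.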

Additional observations from a re-analysis of the deposited data

Results flagged for a closer look

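Among 112 groups of 4 libraries, 6 had a library far from the other 3, where chance gives about 1 in 20. Of the members, Hbb-bt was low in HF 2, at 2232 normalised counts against 2582 to 2603 in the other HF libraries. The other 5 were genes of the marker lists. Zfpm1 stood at 93.9 in LF 1 against 32.8 to 38.8 in the other LF libraries. Mrc1, a macrophage receptor, was at 126 in LF 4 against 219 to 228. Cd79a, a B cell antigen receptor chain, was at 26.0 in LF 4 against 34.1 to 35.1. Nkg7, a gene of cytotoxic lymphocytes, was at 79.3 in LF 1 against 15.8 to 18.5. Scgb1a1, the club cell secretoglobin, was at 2119 in HF 4 against 3410.2 to 3495 in the other HF libraries.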

How the results depend on the processing

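Under 21 alternatives, 166 of 187 values of the members kept their direction and their side of the threshold. The number of genes called was 0 with all libraries, 309 with DESeq2, 1 with no filter, 0 to 1 leaving out each library, 641 when LF 1 and LF 2 were left out, and 3421 when LF 3 and LF 4 were. The number of erythroid members called was 5 without LF 1 and LF 2 and 0 otherwise, where the lowest adjusted p was 0.0880. Signs changed for 1 erythroid value, Alas2 at 0.16 without LF 3 and LF 4, and for 15 platelet values, none past the threshold. Leaving out each library, the log2 fold change ranged from -0.54 to -0.24 for Hbb-bs, from -0.71 to -0.14 for Alas2, from -0.10 (without HF 2) to 0.62 for Pf4, from -0.19 (without HF 2) to 0.61 for Gp9, from -0.63 to 0.27 for Ppbp and from -0.43 to 0.36 for Itga2b. For Ppbp it was positive at 0.081 with edgeR, 0.075 with DESeq2, 0.050 without HF 1, 0.27 without HF 3, 0.0016 without LF 1 and 0.049 without LF 4. For Itga2b it was negative at -0.057 with quantile normalisation, -0.069 with library totals without globins, -0.43 without HF 2, -0.14 without HF 4, -0.19 without LF 2, -0.25 without LF 3 and -0.00053 without LF 1 and LF 2. The log2 ratio of the globin share stayed between -0.69 and -0.31. The causes were not tested. With the replicate number as a block, 0 genes were called and the adjusted p of the erythroid members was 0.392 to 0.550; same-numbered libraries had deviations correlated at 0.11, -0.22, -0.14 and 0.18, and of the HF libraries only HF 4 matched its own number best, so they share only a number. Gp1bb had 1 read over the 8 libraries, where Gp9 of the same receptor had 1321. Whether the low count of Gp1bb comes from depth or from the counting of overlapping genes was not tested.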
